A study of Mus musculus with 12 samples.

Results

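Potassium channel genes were followed through RNA of striatal synaptosomes, the resealed presynaptic endings, often with a piece of the postsynaptic side, that homogenizing brain releases, and through RNA of the polyribosomes isolated from them. They were taken as every row of the deposited table that is a protein-coding mouse gene with a symbol beginning Kcn and reaches a normalized count of 10 in at least 3 of the 12 libraries. This gave 82 genes of the 21492 in the table, of which 16962 reach the same floor. They comprise 37 voltage-gated, 7 calcium- and sodium-activated, 13 inward rectifier and 12 two-pore channel genes, which encode pore subunits, and 13 genes for accessory subunits. Another 5 protein-coding Kcn genes stayed under the floor, namely Kcna10, Kcne3, Kcnj15, Kcnmb1 and Kcnn4. Closest to it, Kcnmb1 reached the floor in 2 libraries with a highest value of 10.4, while just inside Kcnk15 and Kcnq1 reached it in 4 libraries each, Kcnk7 in 5 and Kcne2 in 6.

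Potassium channels let potassium ions leave or enter a cell and so set its resting potential, end its action potentials and pace its firing. Voltage-gated channels open on depolarization, and most channels of the calcium- and sodium-activated class open when those ions rise inside the cell. Inward rectifiers hold the membrane near rest, and two-pore channels carry the background leak. Genes were assigned to a class by symbol. In the striatum the principal neurons, the medium spiny neurons, rest at a strongly negative potential held by inward rectifiers and leave it slowly against A-type voltage-gated currents. Accessory subunits do not form a pore and alter the gating or traffic of the channels they bind.

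The mice were male C57BL/6J animals at postnatal day 70, either wild type (WT) or carrying a Shank3 transgene (TG), and striatal RNA came from the synaptosomal fraction (input) or from its polyribosomes (polysome). Each of the 4 groups had 3 libraries, numbered 1 to 3 in the labels. The promoter of the transgene, the cells that express it and the number of animals behind a library could not be read from the labels. The p-values therefore describe how far these libraries vary, and that variation may be technical. Shank3 itself had 12355 ± 6210.4 normalized counts in TG input against 4047 ± 1871 in WT input (mean ± SD, n = 3). Depth was estimated at 62.0 to 85.8 M reads in the input libraries and 77.4 to 102 M in the polysome libraries, and a read was worth 1.26 to 1.80 normalized counts in input and 0.611 to 0.835 in polysome. All 18 medium spiny neuron markers looked up were measured, and none was at 0 in every library. The RNA is from whole fractions, in which fewer terminals of a cell type and less RNA per terminal cannot be told apart.

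The coding sequences show how the classes differ. Potassium selectivity comes from a short signature in the pore loop, in which threonine or serine is followed by valine, isoleucine or leucine, glycine, an aromatic residue or leucine, and glycine. A search of the longest coding sequence of each gene (GENCODE M21, on GRCm38) found this signature once in every voltage-gated, calcium- and sodium-activated and inward rectifier member. It was found at 2 places in 10 of the two-pore members, which carry a pair of pore loops in each subunit, and at 1 place in Kcnk1 and Kcnk7. None of the 13 accessory members held it. The stretches shown belong to genes that the results turn on, each with 15 bases on either side, 5′ to 3′ on the coding strand, and capitals mark the 15 bases that encode the signature.
Kcnt2: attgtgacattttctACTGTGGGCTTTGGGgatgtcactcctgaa
Kcnt1: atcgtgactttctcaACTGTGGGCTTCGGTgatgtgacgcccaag
Kcnj4: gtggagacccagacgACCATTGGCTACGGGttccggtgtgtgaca
Kcnj2: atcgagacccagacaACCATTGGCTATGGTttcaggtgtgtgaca
Kcnk2, first pore loop: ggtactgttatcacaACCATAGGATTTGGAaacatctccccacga
Kcnk2, second pore loop: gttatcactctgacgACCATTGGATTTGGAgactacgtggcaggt
Kcnk13, first pore loop: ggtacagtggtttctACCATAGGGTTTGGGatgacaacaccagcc
Kcnk13, second pore loop: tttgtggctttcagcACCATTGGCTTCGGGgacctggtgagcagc
Kcng1: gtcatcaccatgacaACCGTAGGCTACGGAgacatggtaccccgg
Kcns2: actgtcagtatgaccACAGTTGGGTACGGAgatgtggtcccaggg

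The first question was which potassium channel transcripts the synaptosomal fraction holds. Levels of different genes were compared per length, as normalized counts per kb of exon. In WT input Kcnj4, which encodes an inward rectifier of the strongly rectifying Kir2 type, stood first with 5370.4, 6275 and 5757 per kb in libraries 1 to 3. Kcnk1, a two-pore channel gene with weak inward rectification, followed with 5064, 5331 and 4555. The values of these 2 genes overlapped.

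Kcnd2, which encodes the pore of A-type channels in dendrites, came next with 3032, 4051 and 3162 per kb, below every library of the 2 leading genes. It led the voltage-gated class, ahead of Kcnv1, a silent subunit that needs another pore subunit to reach the membrane, at 2316 ± 287, and Kcna1, a low-threshold channel of axons, at 2308 ± 135 per kb (mean ± SD, n = 3). Among the accessory genes Kcnab2, a beta subunit of axonal Kcna channels, stood first at 2229 ± 366. It was followed by Kcnip3 at 1766 ± 152 and Kcnip2 at 1190.0 ± 462 per kb, both calcium-binding partners of the A-type channels. Kcnip2 varied most of these, with 1151, 1670.5 and 749 per kb in the 3 libraries.

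The calcium- and sodium-activated class was led by Kcnma1, the pore of the large-conductance BK channel, at 1583 ± 277 per kb. Kcnt2 and Kcnt1, which encode sodium-activated channels, followed at 806 ± 175 and 572 ± 12.6. After Kcnj4, the inward rectifiers were led by Kcnj3, a G protein-gated channel gene, at 1869.5 ± 639 and Kcnj10, the main potassium channel gene of astrocytes, at 1283 ± 180.1. Kcnk2, a channel opened by membrane stretch and lipids, and Kcnk9, an acid-sensitive leak channel, stood at 573 ± 86.7 and 339 ± 90.7 per kb, far under Kcnk1.

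**Figure D1:**
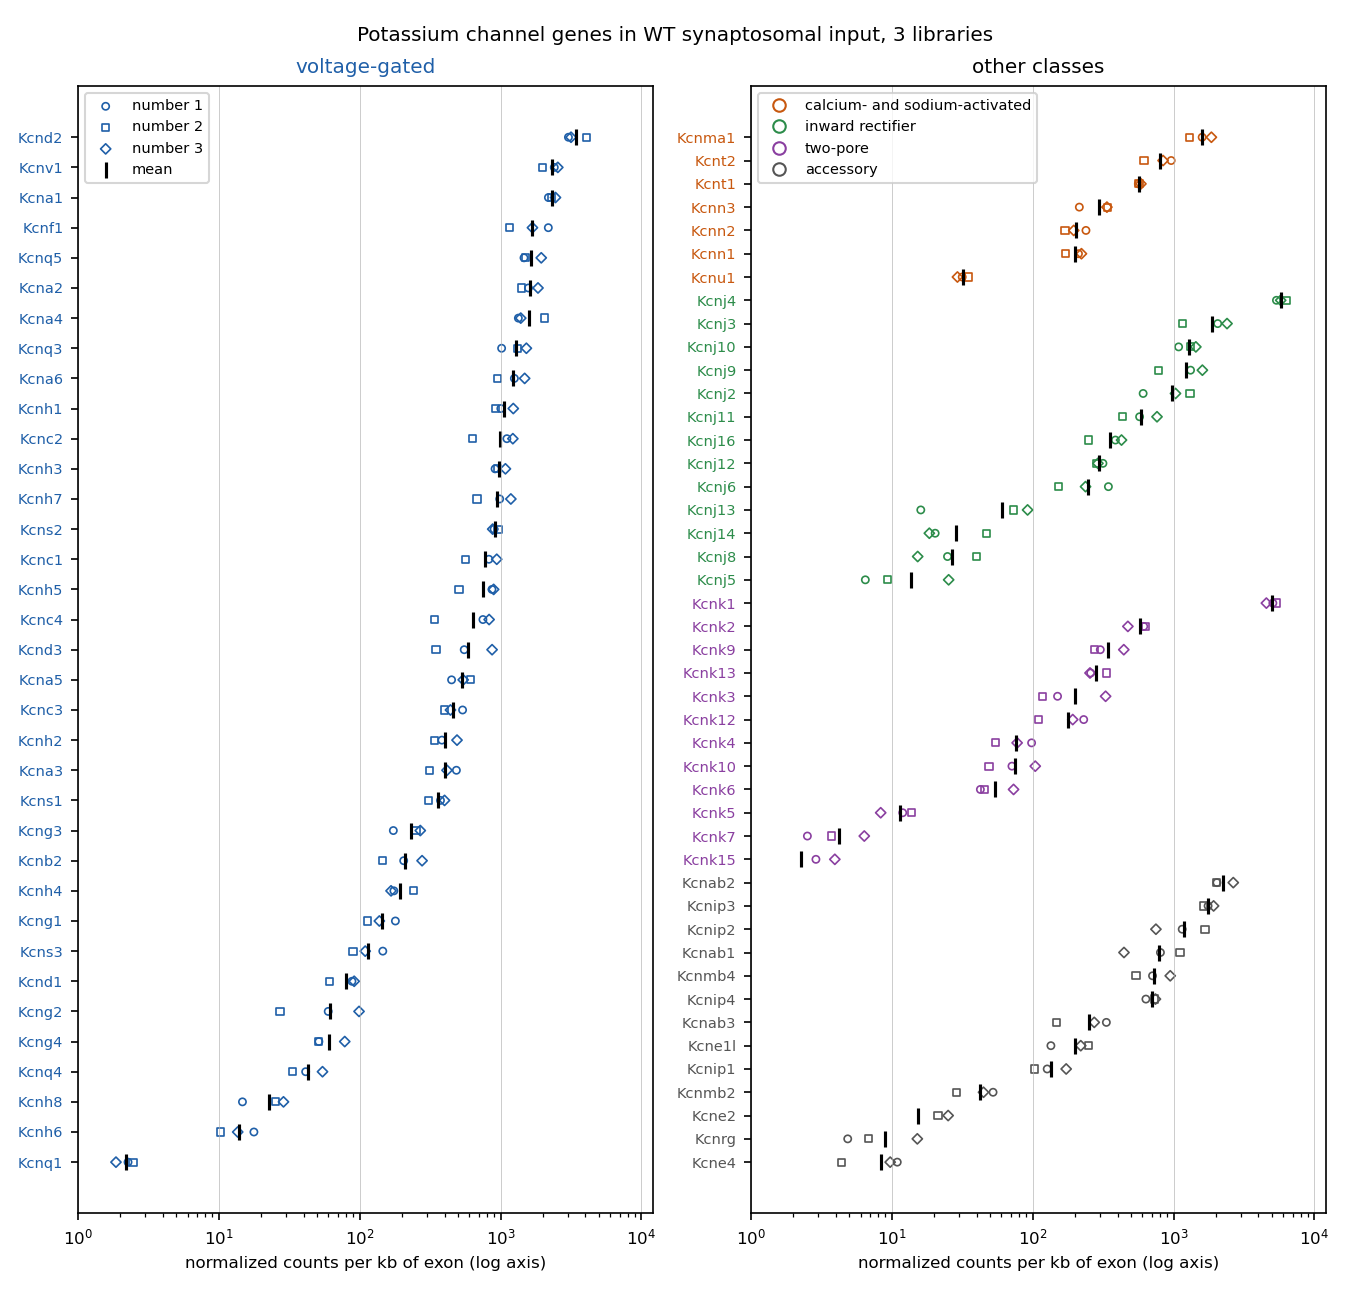
Normalized counts per kb of exon (log axis) of the potassium channel genes, 2 of which are not drawn, in the 3 WT input libraries, ordered within their class, with the mean as a bar. Values at 0 cannot be drawn on this axis. By exonic length Kcnj4 and Kcnk1 stand apart at the top, at 5801 ± 454 and 4983 ± 394 per kb (mean ± SD, n = 3).

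Across the 82 genes, 21 exceeded 1000 and 22 lay under 100 normalized counts per kb in WT input. The order is coarse, since in only 3 of the 81 neighbouring pairs did the 3 values of the higher gene lie clear of those of the lower gene. It also depends on the length used: per kb of coding sequence Kcna2, at rank 11 by exonic length, came first, followed by Kcnk1, Kcnab2 and, at rank 4, Kcnj4, and 6 of the first 10 genes were still among the first 10. The voltage-gated class held 49.6% ± 1.58 of the summed level per kb in WT input, inward rectifiers 20.5% ± 0.547, accessory genes 13.0% ± 0.944, two-pore genes 10.9% ± 1.12 and the calcium- and sodium-activated genes 5.92% ± 0.421 (SD, n = 3). In WT polysome the calcium- and sodium-activated share was 4.49% ± 0.639 and the inward rectifier share 22.8% ± 1.74. With coding length the inward rectifier share was 16.5% ± 0.480 in WT input and 16.9% ± 1.18 in WT polysome, and accessory genes stood above it at 18.2% ± 1.80 in WT input.

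The second comparison asked which of these transcripts were more or less abundant on polysomes than in input. In WT, 4 of the 82 genes passed the test (limma, Benjamini-Hochberg over all genes tested), 3 higher and 1 lower, or 4.88% against 14.0% of the 16962 genes tested (5.36% higher and 8.59% lower). In TG 7 passed, 6 higher and 1 lower, or 8.54% against 18.1% (8.19% higher and 9.86% lower). The 3 higher in WT were Kcng1, Kcnj12 and Kcnk2, and the gene lower in both genotypes was Kcnt2. Kcnj4, Kcnk13 and Kcns2 passed in TG only, and none of the 3 passed a test of the difference between genotypes (interaction, adjusted p = 1.00, 1.00 and 1.00). The WT and TG comparisons share no library, but both came from the same fit with a common spread. Same-numbered WT and TG libraries also deviated together, so a call in both genotypes is not independent support.

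Libraries with the same number deviated together. Input and polysome libraries of the same genotype and number were therefore also fitted as pairs, called the block here. With the block 20 genes passed in WT, 16 higher and 4 lower, or 24.4% against 29.8% of all genes (13.9% higher and 15.9% lower). In TG 25 passed, 19 higher and 6 lower, or 30.5% against 33.2% (16.7% higher and 16.6% lower). The count rested on few libraries in both forms. Without the block it fell to 0 in WT when WT input 3, WT polysome 2 or WT polysome 3 was left out and to 2 without WT input 2. In TG it was 0 without TG polysome 3, 1 without TG input 3, 3 without TG input 2, TG polysome 1 or TG polysome 2, and 4 without WT input 1. With the block it was 2 in WT and 3 in TG when the libraries numbered 2 were left out.

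**Figure D2:**
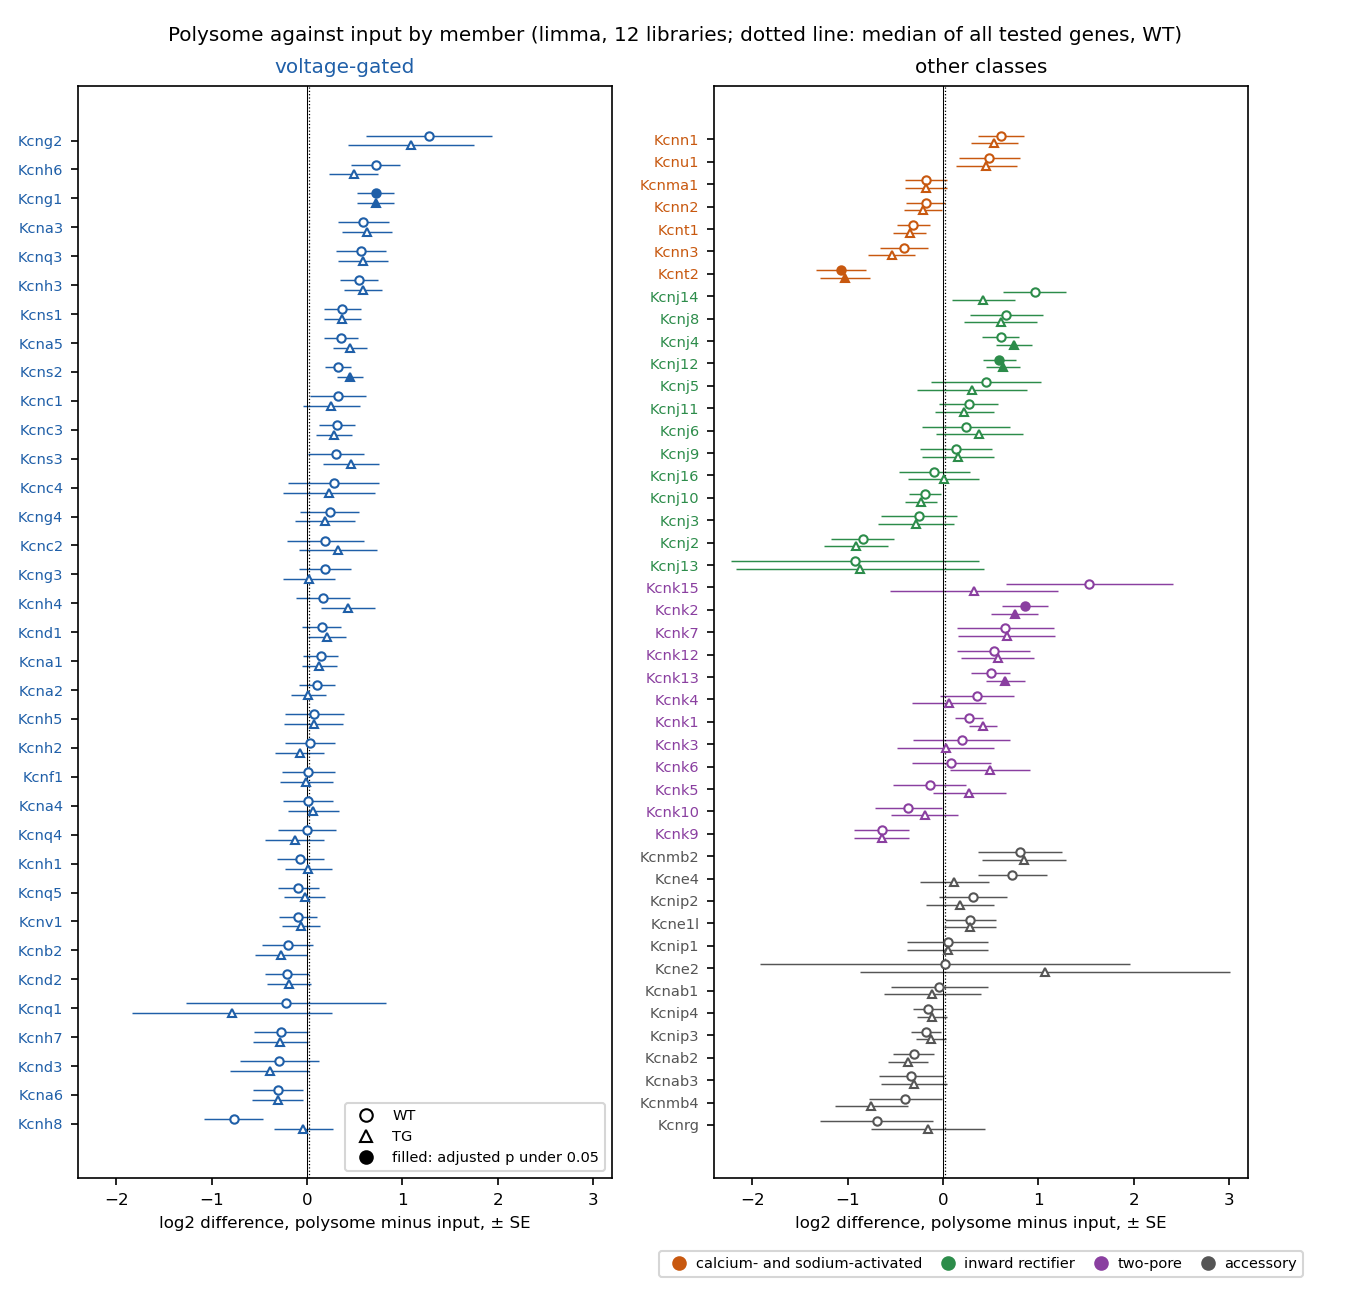
Log2 difference of polysome minus input (± SE, 12 libraries in 1 fit) for the potassium channel genes, 2 of which are not drawn, in WT (circles) and TG (triangles), by class. Filled symbols passed at an adjusted p under 0.05, and the dotted line is the WT median of all tested genes, 0.026. Kcnt2 is the filled symbol to the left, at -1.07 and -1.03.

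Sodium- and calcium-activated channels held the one called decrease. Kcnt2 (ENSMUSG00000052726, chr1:140246158-140612067) had 6627, 4250.0 and 5803 normalized counts in WT input and 3882, 1884 and 2433 in WT polysome. In TG the values were 5256, 3772 and 6291 in input and 2408, 2360.2 and 2593 in polysome. Polysome and input did not overlap in either genotype. The log2 difference was -1.07 ± 0.26 (SE) in WT (adjusted p = 0.0210, limma) and -1.03 ± 0.26 in TG (adjusted p = 0.0206). Leaving out 1 library of the WT pair of groups took the adjusted p past the threshold for 4 of the 6 libraries, with a highest value of 0.0823.

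Its paralogue Kcnt1, whose filter bases are printed beside those of Kcnt2, did not pass, at -0.31 ± 0.18 in WT and -0.35 ± 0.18 in TG. Of the small-conductance calcium-activated channel genes, Kcnn1 stood at 0.61 and 0.54 in WT and TG, and Kcnn3 at -0.41 and -0.54. Both passed with the block alone, Kcnn1 higher (adjusted p = 0.0224 and 0.0305) and Kcnn3 lower (0.0392 and 0.0122). Kcnma1 was at -0.17 ± 0.22 in WT and -0.18 ± 0.22 in TG, and its sign turned to 0.33 and 0.34 once the trend of the difference on exonic length was removed.

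Among the inward rectifiers, genes of the same Kir2 type lay on opposite sides of 0. Kcnj12 (ENSMUSG00000042529, chr11:61022564-61071131) had 866, 781 and 798 normalized counts in WT input and 1056, 1172 and 1489 in WT polysome. In TG it had 800.4, 785 and 778 in input and 1012, 1209 and 1485 in polysome. Every polysome library lay above every input library. The log2 difference was 0.59 ± 0.17 in WT (adjusted p = 0.0415, limma) and 0.63 ± 0.17 in TG (adjusted p = 0.0274). Leaving out any WT library but WT polysome 1 ended the WT call (adjusted p up to 0.155). The TG call ended without TG input 2 or 3 or TG polysome 2 or 3 (up to 0.111).

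Kcnj4 (ENSMUSG00000044216, chr15:79483714-79505241), first in level per kb, had 11557, 13504 and 12388 normalized counts in WT input and 15039.8, 21290.4 and 21324 in WT polysome. In TG input it had 13456, 14287 and 12931 and in TG polysome 17970.0, 23204 and 28138. Here too every polysome library exceeded every input library. It rose by 0.75 ± 0.19 on the log2 scale in TG (adjusted p = 0.0207, limma), while the WT difference of 0.61 ± 0.19 passed only with the block (adjusted p = 0.0530 without and 0.0183 with it). With the length trend removed, the calls of Kcnj12 and Kcnj4 ended without the block (adjusted p = 0.108 for Kcnj12 in WT, and 0.0841 and 0.0813 for Kcnj12 and Kcnj4 in TG). The TG call of Kcnj4 also ended without TG input 3 or TG polysome 3 (adjusted p = 0.0673 and 0.0850, limma).

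Kcnj2, the third Kir2 gene of the medium spiny neuron, pointed the other way and passed only with the block. It had 3308, 7116 and 5613 normalized counts in WT input against 2236, 3884 and 2647 in WT polysome, and 4347, 8099.5 and 7527 against 2501, 4587 and 3481 in TG. Input and polysome overlapped in both genotypes, yet polysome was lower within each of the 6 same-numbered pairs. The log2 difference was -0.84 ± 0.33 in WT and -0.91 ± 0.33 in TG (adjusted p = 0.108 and 0.0758 without the block, 0.00416 and 0.00266 with it). Kcnj2, Kcnn1, Kcnn3 and the other genes named below as passing with the block alone were picked after their values were seen.

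Of the remaining inward rectifiers Kcnj3 was at -0.25 ± 0.40 and Kcnj10 at -0.19 ± 0.17 in WT, neither passing. Kcnj10 is made mainly by astrocytes, whose 12 markers were all measured with none at 0 in every library. Their summed level was 412810.3 to 428838 in WT input and 253306 to 386489.8 in WT polysome. In TG the sums were 396368 to 449070.0 and 273574 to 409024. Gene by gene the markers were split, with 6 above 0 and 6 below in WT and 5 and 7 in TG. Their median log2 differences of polysome against input were -0.06 in WT and -0.12 in TG. The part of astrocyte RNA in these values was not tested. Kcnj14, a low-level Kir2 gene, stood at 0.96 ± 0.33 in WT and passed there only with the block (adjusted p = 0.0195). It shares 35.6% of its 31-base sequences with a predicted gene, Gm5522, so its value is uncertain.

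Two-pore channel genes had the highest class median, a log2 difference of 0.32 in WT and 0.38 in TG, though with the length trend removed, or without TG input 2, the voltage-gated median was higher in TG, and in a fit of the 6 WT libraries alone, or without WT polysome 2, the inward rectifier median was higher in WT. Kcnk2 (ENSMUSG00000037624, chr1:189207930-189402273) had 3033, 3124 and 2341 normalized counts in WT input and 4081, 5958 and 5458 in WT polysome, without overlap. In TG it had 2458, 4532 and 2933 in input and 4258, 6194 and 5903 in polysome, where input library 2 lay above polysome library 1. It rose by 0.86 ± 0.24 on the log2 scale in WT (adjusted p = 0.0344, limma) and by 0.75 ± 0.24 in TG (adjusted p = 0.0483). Leaving out any WT library but WT polysome 1 ended the WT call (adjusted p up to 0.138). The TG call ended for any TG library but TG input 2 (up to 0.146). It also ended with no filter on low values (0.0552) or no variance trend (0.0743).

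Kcnk13 (ENSMUSG00000045404, chr12:99964499-100062682), a halothane-inhibited background channel gene that is prominent in microglia, had 802, 1043 and 793 in WT input and 1074, 1660.4 and 1057 in WT polysome. In TG the values were 862, 941 and 819 in input and 1142, 1557 and 1455 in polysome, and the fractions did not overlap. It rose by 0.65 ± 0.20 in TG (adjusted p = 0.0421, limma), and the WT difference of 0.50 ± 0.20 passed only with the block (adjusted p = 0.116 without and 0.0221 with it). The TG call ended with the length trend removed (adjusted p = 0.0977), and also whichever TG library was left out (up to 0.125). Microglial markers lay on the same side of 0 in this comparison. Of 12 genes, none at 0 in every library, 8 lay above 0 in each genotype with median log2 differences of 0.42 in WT and 0.50 in TG, and their summed level was 46311 to 59259.9 and 54315 to 60066 in WT input and polysome, and 43986 to 61482 and 51151 to 70607 in TG. Across the 4 groups Kcnk13 deviated from the mean of the other libraries by -0.23, 0.37 and -0.14 in libraries 1 to 3. The median deviations of the microglial markers were -0.19, -0.20 and 0.37, so the signs were opposite in libraries 2 and 3. The part of microglial RNA in the Kcnk13 value was not tested.

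Kcnk1 stood at 0.28 ± 0.15 in WT and 0.42 ± 0.15 in TG, and passed in TG with the block (adjusted p = 0.0629 without and 0.0232 with it). Kcnk9, the acid-sensitive channel gene, lay below 0, at -0.64 ± 0.29 in WT and -0.64 ± 0.29 in TG. It passed as lower with the block in both genotypes (adjusted p = 0.0140 and 0.0113), and its differences were -0.26 and -0.25 with the length trend removed. Its exons span 12300 bases.

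**Figure D3:**
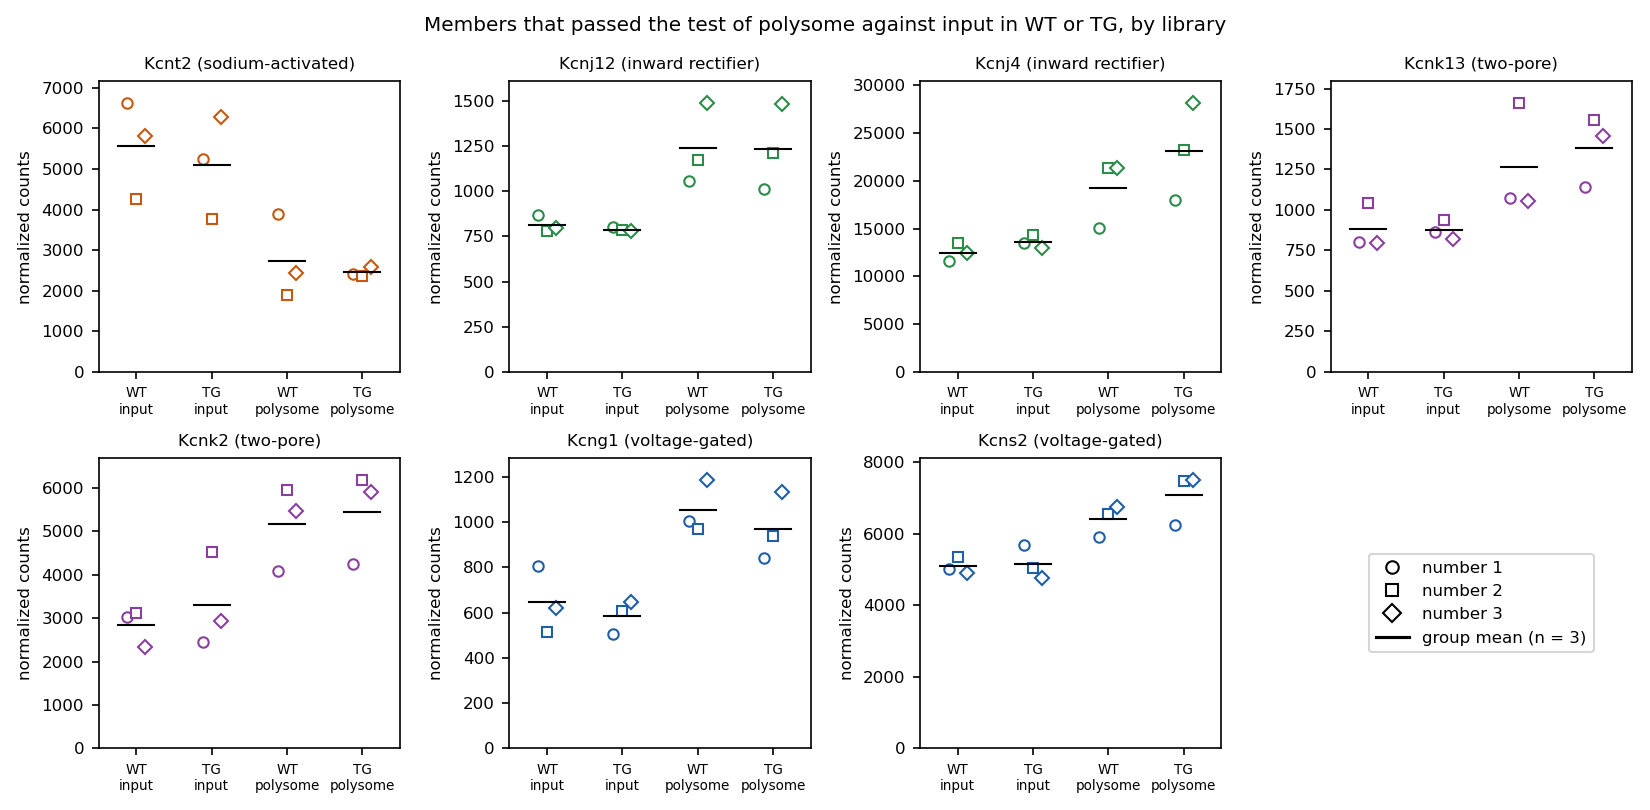
Normalized counts in every library of the 7 genes that passed the test of polysome against input in WT or TG, with the number of each library as its symbol and the group mean as a bar (n = 3). Kcnt2 is lower on polysomes and the other 6 are higher. In Kcnk2 the TG groups overlap.

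Voltage-gated genes centred on a log2 difference of 0.15 in WT and 0.13 in TG, with 26 of 37 above 0 in WT and 25 in TG. Both called members encode silent subunits that join Kcnb pore subunits. Kcng1 (ENSMUSG00000074575, chr2:168260117-168281736) had 808, 514 and 621 normalized counts in WT input and 1004, 968 and 1188 in WT polysome. In TG it had 505, 606 and 649 in input and 841, 939 and 1131 in polysome, and every polysome library exceeded every input library. It rose by 0.72 ± 0.19 in WT (adjusted p = 0.0301, limma) and 0.72 ± 0.19 in TG (adjusted p = 0.0246). Leaving out any WT library but WT input 1 ended the WT call (adjusted p up to 0.108), as did a fit of the WT libraries alone (0.0521). The TG call ended without TG input 1, TG input 2 or TG polysome 3 (up to 0.0984).

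Kcns2 (ENSMUSG00000050963, chr15:34837355-34843407) had 5024, 5361 and 4910.4 in WT input and 5908, 6568 and 6743 in WT polysome, and 5685, 5056 and 4761 and 6246, 7468 and 7521 in the TG fractions. The fractions did not overlap in either genotype. It rose by 0.45 ± 0.14 in TG (adjusted p = 0.0407, limma), and was at 0.33 ± 0.14 in WT (adjusted p = 0.132). The TG call is marginal, since leaving out a library of the other genotype was enough to end it for 5 of the 6 WT libraries (adjusted p up to 0.0566).

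All 4 Kcng and all 3 Kcns genes had differences above 0 in both genotypes, with medians of 0.48 and 0.33 in WT and 0.45 in TG for each family. Their signs were the same under TMM scaling. That step moved the Kcng median only from 0.479 to 0.482 in WT and from 0.455 to 0.448 in TG, too little to test a sign. With the length trend removed 3 of 4 Kcng genes were above 0 in TG. Kcng2 had the highest difference of the class in both genotypes and a wide spread, with 179, 81.2 and 296 normalized counts in WT input and 525, 186 and 634 in WT polysome. Its fractions overlapped, but each of the 3 pairs rose by a similar amount, 1.55, 1.19 and 1.10 on the log2 scale. It passed with the block (adjusted p = 0.00146 in WT and 0.00231 in TG, against 0.213 and 0.276 without it).

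The Kcnc genes, whose channels allow fast spiking, were above 0 in 4 of 4 cases in both genotypes, with a WT range of 0.19 to 0.32. The same held with the length trend removed, and under TMM scaling, which moved their WT median only from 0.297 to 0.301. None passed in the fit without a block. Kcnq3, which encodes a subunit of the M-type channel, stood at 0.57 in WT and 0.59 in TG. It passed as higher with the block (adjusted p = 0.00834 in WT). It also passed there without the block once the length trend was removed, at 1.02 (adjusted p = 0.0251). Of the most abundant members, Kcnd2 was at -0.21 ± 0.23, Kcnv1 at -0.10 ± 0.20 and Kcna1 at 0.14 ± 0.18 in WT, none passing.

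Accessory genes showed no call in either genotype without the block (limma, 13 tested; 0 had an unadjusted p under 0.05), with medians of -0.04 in WT and -0.11 in TG. Kcnab2 stood at -0.31 ± 0.21 and -0.37 ± 0.21 in WT and TG, Kcnip3 at -0.18 ± 0.16 and -0.13 ± 0.16, and Kcnip2 at 0.31 ± 0.36 and 0.18 ± 0.36. The BK beta subunit gene Kcnmb2 was at 0.81 and 0.85 and passed as higher with the block (adjusted p = 0.0147 and 0.00976). Its relative Kcnmb4 was at -0.40 and -0.75 and passed as lower with the block in TG only (adjusted p = 0.139 in WT and 0.0149 in TG). Kcne2, known from the choroid plexus, could hardly be compared, with 0.000, 37.6 and 44.3 normalized counts in WT input and 0.000, 32.4 and 54.0 in WT polysome.

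Over all 82 genes the median log2 difference of polysome against input was 0.14 in WT and 0.12 in TG, beside 0.026 and 0.030 over all tested genes. In WT 51 lay above 0 and 31 below, and in TG 52 and 30. Of all 16962 genes tested, 8782 lay above 0 in WT and 8793 in TG, or 51.8% in both. The direction was the same in all 6 same-numbered pairs for 32 higher and 13 lower of the 82 genes, 18 and 3 of them voltage-gated, against 25.0% and 24.1% of all genes. The medians were small beside the effect of single libraries, at -0.00037 in WT without WT input 2, and -0.0088 and -0.055 in TG without TG input 2 and TG polysome 3. The median SE was 0.29 for these genes and 0.24 for all genes.

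Gene length moved with the difference. Across the 82 genes the Spearman correlation of exonic length with the log2 difference was -0.39 in WT and -0.43 in TG, a description over genes that share the same libraries. Removing the trend that all genes show brought it to -0.0054 and 0.0072. The class medians in WT then were 0.20 for voltage-gated, 0.01 for calcium- and sodium-activated, 0.22 for inward rectifier, 0.24 for two-pore and -0.21 for accessory genes, against 0.15, -0.18, 0.24, 0.32 and -0.04 before. The part of length in single differences was not tested beyond this.

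The third comparison asked whether the potassium channel transcripts differ with the Shank3 transgene. No member passed in input (79 tested) or in polysome (81 tested), where limma called 0% of 16341 and of 16312 genes. Shank3 itself did not pass in this fit without the block, at 1.57 ± 0.49 in input and 1.53 ± 0.52 in polysome (log2 difference of TG minus WT ± SE). A difference of that size could thus go uncalled here in a gene with so wide an SE, which is wider than the median of the members. At an unadjusted p under 0.05 there were 0 members in input, against 0.490% of all genes, and 1 in polysome, against 0.325%. These all-gene shares lie far under what a threshold of 0.05 admits without any difference. The fit without the block, which leaves the numbers in its spread, was thus likely conservative. The median log2 difference of TG minus WT was -0.0060 over the members in input and -0.0063 in polysome. With the number as the block no member passed either, against 0% of all genes in input and 0.00613% in polysome. At an unadjusted p under 0.05 the block gave 1 member in input, against 2.72% of all genes, and 2 in polysome, against 2.69%. The median SE of a member was 0.28 in input and 0.25 in polysome without the block, and 0.13 in both with it.

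The member with an unadjusted p under 0.05 was Kcnh8, a slowly gating channel gene of the ether-a-go-go family. In WT polysome it had 57.1, 68.1 and 51.5 normalized counts and in TG polysome 76.9, 108 and 92.7, without overlap. The log2 difference of TG minus WT was 0.64 ± 0.24 (unadjusted p = 0.0288, adjusted p = 1.00, limma). In input it had 67.0, 115 and 131 in WT and 74.5, 81.2 and 138 in TG, which overlapped. The next smallest p-values in polysome belonged to Kcnk7, at 0.72 ± 0.47, and Kcnu1, a channel gene best known from sperm, at -0.29 ± 0.20 (adjusted p = 1.00 for both). Kcnk7 reached no more than 21.1 normalized counts in any library.

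In input the smallest p-values were those of Kcnk5, an alkaline-activated leak channel gene, at -0.61 ± 0.41, Kcne4, an accessory gene, at 0.65 ± 0.45, and Kcnj14 at 0.42 ± 0.41 (adjusted p = 1.00 for each, limma). Kcne4 had 29.0, 11.7 and 25.9 normalized counts in WT input and 35.3, 32.0 and 32.1 in TG input. The WT values lay below the TG values, and all were low. The difference of the polysome effect between genotypes gave no call among 82 members (limma; 0 at an unadjusted p under 0.05, against 0.554% of 16962 genes). Its smallest p-values belonged to Kcnh8 (0.73 ± 0.44), Kcne4 (-0.61 ± 0.51) and Kcnj14 (-0.54 ± 0.47), with an adjusted p of 1.00.

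Medium spiny neuron markers lay higher in TG than in WT for 18 of 18 genes in both fractions, with median log2 differences of 0.20 in input and 0.21 in polysome and no call. Of all tested genes, 47.1% lay higher in TG in input and 53.4% in polysome. The summed level of these markers was 317638 to 648681 in WT input and 369113 to 727884 in TG input, and 328044 to 708323 and 387272 to 761182 in the polysome groups. Kcnj2, Kcnj4 and Kcnd2, picked as known from these neurons, were at 0.33 ± 0.33, 0.12 ± 0.14 and 0.12 ± 0.19 (log2 difference of TG minus WT in input ± SE). None passed, and TG input lay above WT input in all 3 same-numbered pairs of each gene. With the block the SE were 0.10, 0.09 and 0.10, and Kcnj2 had an unadjusted p of 0.00819 in input and 0.0341 in polysome (adjusted p = 1.00 for both, limma). In polysome the number 1 pair of Kcnd2 went the other way, with 14104 normalized counts in TG against 14341 in WT. Kcnj12, another Kir2 gene of these neurons, had 800.4, 785 and 778 in TG input against 866, 781 and 798 in WT input. Its TG values thus did not lie above WT throughout. Nor did those of Kcnip2, a partner of the A-type channels, with 4607, 5613 and 2378 in TG input against 3999, 5807 and 2603 in WT input. The part of the neuron markers in the genotype values was not tested.

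**Figure D4:**
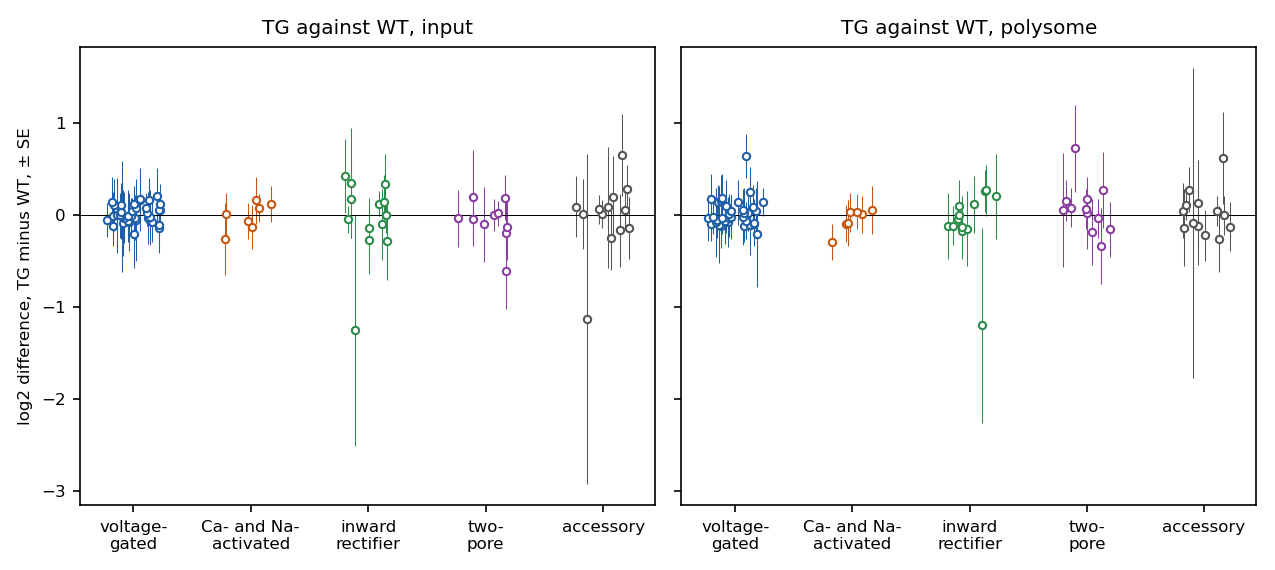
Log2 difference of TG minus WT (± SE, 6 libraries in each fit) of the potassium channel genes tested in input (79, left) and polysome (81, right), by class. Points within a class are spread sideways for legibility. No point passed, and the widest bars belong to genes at low levels.

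Libraries of different number differed from each other in ways that the design does not explain. In all 4 groups library 2 was below the mean of the other 2 libraries for 42 of the 82 genes and above it for 15, so 69.5% moved one way throughout, against 42.1% of the 16962 genes at the floor. For library 3 the counts were 6 below and 45 above, or 62.2% against 38.8%, and for library 1 they were 27 below and 9 above, or 43.9% against 30.6%. These are descriptions without a test, and what a number stands for is not stated in the labels.

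The member by which library 2 exceeded the other libraries most was Kcnab1. This gene, for a beta subunit that speeds inactivation, had 6927, 9548 and 3818 normalized counts in WT input and 6926, 12927 and 4236 in TG input. On polysomes it had 5685, 10199 and 4011 in WT and 6238, 12718 and 3804 in TG. Library 2 was the highest and library 3 the lowest in each of the 4 groups, and library 2 exceeded the mean of the other 2 by 1.16 on the log2 scale. Kcnip2 (0.71), Kcnh4 (0.66), Kcnj2 (0.63), Kcnj8 (0.62) and Kcna4 (0.62) were also higher there in all 4 groups. Of the other accessory genes of the same families, Kcnab3 (-0.75), Kcnip1 (-0.98) and Kcnip3 (-0.23) lay lower there. Kcnab2 and Kcnip4 stood at 0.075 and 0.10.

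Genes low in library 2 included Kcnc4, of fast-spiking channels, and Kcnj6, of G protein-gated channels. Kcnc4 had 2748, 1244 and 3040.4 in WT input and 2205, 1197 and 3507 in TG input, and Kcnj6 had 2629, 1169 and 1809 and 1976, 785 and 1959. Library 2 was the lowest each time, by -1.15 and -1.12 on the log2 scale over the 4 groups. Kcng2 (-1.62), Kcnc2 (-0.98) and Kcnj3 (-0.91) followed the same course. Kcnj13 and Kcne2, both known from the choroid plexus, were highest in library 3 in all 4 groups, by 2.77 and 3.81.

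Cell type markers moved with the numbers. Over the 4 groups the median deviation of library 2 was 0.98 for 18 medium spiny neuron markers, 0.55 for 12 oligodendrocyte markers and -0.69 for 12 markers of cortical excitatory neurons, and that of library 3 was 0.79 for 10 choroid plexus and ependymal markers. The summed cortical markers were 46281 to 99948 in WT input and the summed choroid plexus markers 1038 to 10991. None of these markers was at 0 in every library, and their part in the differences between libraries was not tested.

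**Figure D5:**
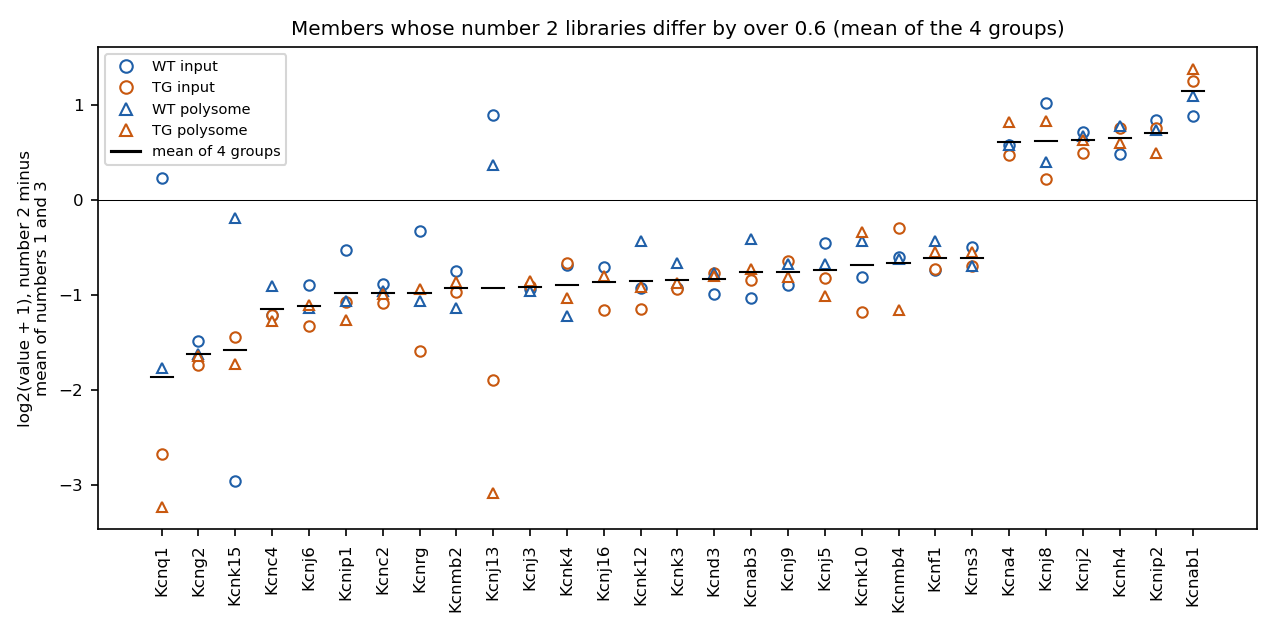
Log2(value + 1) of library 2 minus the mean of libraries 1 and 3 in each of the 4 groups, for the potassium channel genes whose mean over the groups is past 0.6 in either direction, so the genes were chosen by the value plotted. Kcnab1 is highest at 1.16 and Kcng2 lies at -1.62 with its 4 groups close together. Kcnq1, Kcnk15 and Kcnj13, at low levels, scatter widely.

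Partners of the channels were read from lists of genes that bind or anchor them. Of 24 partners of voltage-gated channels, 1 was higher and 2 were lower on polysomes in WT, and 1 higher and 4 lower in TG, with medians of -0.16 and -0.03. These are 12.5% and 20.8% of the list, beside 14.0% and 18.1% of all genes. With the block 3 were higher and 5 lower in WT and 3 and 7 in TG, or 33.3% and 41.7% beside 29.8% and 33.2%. Vapb, a membrane protein that clusters Kcnb channels at contacts with the endoplasmic reticulum, was at 0.46 ± 0.14 in WT and 0.67 ± 0.14 in TG (adjusted p = 0.0404 and 0.00814, limma). The anchor gene Ank2 fell by 0.72 in WT and 0.79 in TG (adjusted p = 0.0209 and 0.0117), and the scaffold gene Dlg3 by 0.55 and 0.64 (adjusted p = 0.0356 and 0.0164). Dlg1 and Akap5, a kinase anchor, passed as lower in TG only, at -0.55 and -1.20 (adjusted p = 0.0366 and 0.0295), and were at -0.51 and -1.05 in WT.

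Of 21 partners of inward rectifiers, which include the G protein subunits and RGS proteins that gate Kcnj3, Kcnj6 and Kcnj9 channels, 1 was higher and 1 lower in WT and 1 higher in TG, with medians of 0.05 and -0.02. These are 9.52% and 4.76% of the list, beside 14.0% and 18.1% of all genes. With the block 2 were higher and 3 lower in WT and 3 and 4 in TG, or 23.8% and 33.3% beside 29.8% and 33.2%. Gnb2, a G protein beta subunit gene, rose by 0.93 ± 0.24 in WT and 1.01 ± 0.24 in TG (adjusted p = 0.0261 and 0.0151, limma). Rgs7 fell by 0.59 in WT (adjusted p = 0.0411) and was at -0.53 in TG (adjusted p = 0.0513). None of 3 measured BK partners (of 5) and none of the 4 Hcn genes, whose channels carry the pacemaker current, passed in either genotype without the block. With it, 1 Hcn gene was lower in each genotype and 1 BK partner was higher in TG. No partner passed between genotypes.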

How the data were processed

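Striatal RNA of input and polysome fractions was sequenced in 12 libraries, 3 in each of 4 groups taken from the sample titles. The deposited table holds normalized signal per gene, taken here as estimated counts scaled by the authors. Whether all genes of a library share the same factor is not stated. The submitters' processing notes name Salmon 1.1.0, R 3.6.2, DESeq2 1.26.0 and build GRCm38, and the order of these steps and the settings are not stated there. Whole reads could not be recovered, since 33.3% to 45.9% of low values lay within 0.1 read of a whole number, so no count test was run. The size of 1 read in each library was estimated from the spacing of low values, and depth follows from it. Both hold only if all genes of a library share the same factor.

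Values were taken as log2(value + 1) and fitted with limma 3.58.1 in R 4.3.3, with an eBayes trend on mean level. Fold changes on this scale understate those of low genes. Genes needed a value of 10 in at least 3 fitted libraries. The polysome comparisons and the interaction used all 12 libraries, and each genotype comparison used its 6. P-values were adjusted by Benjamini-Hochberg over all genes tested, with a threshold of 0.05, and the steps were tested on simulated data. Exonic and coding lengths, gene positions and coding sequences came from GENCODE M21, which matched 21465 of the 21492 identifiers. The length trend was removed with lowess (span 0.3) in each library, and copies were found by shared 31-base sequences.

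Libraries of the same number deviated together, with correlations of 0.28 to 0.55 in 12 pairs against -0.41 to -0.04 in the 24 others, so the numbers were taken to pair the samples, from these correlations and not from the labels. In the polysome comparisons and the interaction a block was the libraries of the same genotype and number. In the genotype comparisons it was the libraries of the same number. Genes were named if they passed in WT or TG, were among the 3 highest of their class per kb in WT input, or had the 3 smallest p-values in a genotype comparison. Others were picked after their values were seen. Members and lists were chosen with earlier results of these data known. Alternatives covered scaling, filter, pseudocount, variance trend, libraries fitted, the block, length and leaving libraries out. Single values of 2 members, and 1 sequence, are not reported here.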

Additional observations from a re-analysis of the deposited data

How the results depend on the processing

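Without the block the number of potassium channel genes called was 4 in WT and 7 in TG. In a fit of the 6 libraries of each genotype alone it was 2 in both. With no filter on low values, and with no variance trend, it was 4 in TG. Leaving out 1 library gave 0 to 5 in WT and 0 to 7 in TG. With the block it was 20 in WT and 25 in TG, and with the block and the length trend removed 20 and 22. Leaving out all libraries numbered 1, 2 or 3 under the block, which was chosen after seeing the data as was its pairing with length, gave 11, 2 and 13 in WT and 16, 3 and 16 in TG. The block also added calls among the partner genes. The genotype comparisons and the interaction gave 0 members under every alternative run.

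The median difference of the 82 genes kept its sign in all alternatives but 3 that left out 1 library. It was 0.072 in TG with a floor of 50, 0.16 in TG with the length trend removed, with or without the block, and 0.18 in TG under the block without the libraries numbered 2. Leaving out 1 library gave -0.00037 (WT input 2), 0.066 (WT polysome 3) and 0.23 (WT input 3) at the extremes in WT. In TG the shifted values were -0.055, -0.0088, 0.095, 0.21, 0.24 and 0.25. The cause of these shifts was not tested. Of the levels, the voltage-gated share per kb in WT input was 49.6% with exonic and 50.3% with coding length, while that of inward rectifiers went from 20.5% to 16.5% and that of accessory genes from 13.0% to 18.2%, which turned their order.

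Over the named genes, 1010 values held their direction and side of the threshold under an alternative, 90 lost a call, 18 gained one and 13 turned sign, all 13 in genes that were not called. Kcnma1 stood at 0.33 in WT and 0.34 in TG with the length trend removed, with or without the block. Leaving out 1 library or 1 number gave Kcnma1 in TG -0.30 to 0.034, Kcnj3 in WT -0.57 to 0.064 and in TG -0.58 to 0.10, Kcnv1 in TG -0.20 to 0.11, Kcna1 in TG -0.059 to 0.25, and Kcnip2 in TG -0.19 to 0.43. Kcnv1 in WT was 0.023 under the block without the libraries numbered 3. Depth limits the low genes, as a read was worth up to 1.80 normalized counts in input.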

Other observations

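Rows with a Kcn symbol that do not encode protein stood outside the comparisons. Kcnq1ot1, the antisense RNA of the imprinted Kcnq1 region, had 92.9 ± 6.38 normalized counts in WT input and 69.9 ± 23.5 in WT polysome (mean ± SD, n = 3). Its log2 difference of polysome against input was -0.45 in WT and -0.39 in TG, and neither passed (adjusted p = 0.339 and 0.408, limma). The antisense rows Kcnmb4os2 and Kcnd3os averaged 33.6 ± 18.4 and 12.7 ± 11.5 in WT input, and Kcnab3os stayed under 4 normalized counts in every library. Whether the counting used strand is not stated, so reads of these genes and of their partners may not be told apart.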
